A study of Mus musculus with 2 samples.

Results

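The creatine kinase and adenylate kinase genes of the mouse heart were described here in 2 pooled RNA-seq libraries, 1 from Med1fl/fl hearts (control) and 1 from csMed1-/- hearts. The 8 genes were taken by symbol from the 22882 gene symbols of the deposited tables and were Ckm, Ckb, Ckmt2, Slc6a8, Gatm, Gamt, Ak1 and Ak4. All 8 were found, each on 1 row and above 0 in both libraries, so no values had to be summed. Control mice carried Med1 alleles with loxP sites around exons of Med1, a subunit of the Mediator complex that links transcription factors to RNA polymerase II, and the labels name no treatment for either genotype. In csMed1-/- mice the same floxed alleles had been recombined by a Cre transgene under the α-myosin heavy chain promoter, which is active in cardiomyocytes, so the other cells of the heart kept Med1. Both groups were on a C57BL6/J background, 23 days old and of mixed sex, and the RNA of 5 hearts was pooled for each genotype. Each genotype therefore has 1 library and no replicates, the variation between hearts or between pools is unknown, and no test between genotypes was made.

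Creatine kinases move a phosphate group between ATP and phosphocreatine and so hold a reserve of high-energy phosphate beside the contractile filaments and the ion pumps of muscle. The mitochondrial enzyme makes phosphocreatine next to the adenine nucleotide translocase, and the cytosolic enzymes turn it back into ATP where ATP is used. Adenylate kinases recover ATP from ADP and give AMP, the nucleotide that AMP-activated protein kinase senses. Heart muscle takes creatine from the blood through a transporter, since most creatine is made in kidney and liver.

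The level of each gene is given as FPKM, the fragments of a gene scaled to its transcript length and to the fragments of the library. A comparison between libraries still depends on how they were scaled. The FPKM of all rows summed to 780366 in the control pool against 716365 in csMed1-/- heart. A change is the ratio of csMed1-/- to control FPKM or its log2. Ratios were read against a background of 10489 genes, each above 0 in both pools and with a larger value of at least 1 FPKM, and 7 of the 8 genes belonged to these. Gatm stayed under 1 FPKM in both libraries. Med1 itself had 3.38 FPKM in the control pool against 0.412 FPKM in csMed1-/- heart, a ratio of 0.122. Read totals are not in the tables used here, so the depth behind a value is unknown. Among 2461 rows with low values (up to 0.15 FPKM in each pool) the most common ratio was 0.719, where 1 read per library would lie. This step held only 41 of these rows, against a median of 7.5 in the 10 bins on each side. Under a scaling by library size only, the step corresponds to a depth 1.39 times that of control in csMed1-/-. A total of 12 genes had 100 FPKM or more in one library and exactly 0 in the other, the cardiomyocyte genes Actc1 and Mb among them (both listed at 0 in control), and none of the 8 genes described here was at 0.

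The 3 creatine kinase genes did not differ between the libraries in 1 direction, and the sequence before their start sites is shown because Ckb, which was higher, can be set there beside Ckm and Ckmt2, which were lower. Each line holds the 250 bases before the RefSeq transcription start (GRCm38.p6, the build also named mm10), or for Ckmt2 the 212 of these that lie outside the gene's longest RefSeq span, with capitals for TATAAA or TATATA boxes, CCAAT boxes (or ATTGG on the other strand) and CANNTG motifs. The first lies at chr7:19410844-19411093 on the plus strand, the second at chr12:111672339-111672588 on the minus strand and the third at chr13:91876924-91877135 on the minus strand.
Ckm: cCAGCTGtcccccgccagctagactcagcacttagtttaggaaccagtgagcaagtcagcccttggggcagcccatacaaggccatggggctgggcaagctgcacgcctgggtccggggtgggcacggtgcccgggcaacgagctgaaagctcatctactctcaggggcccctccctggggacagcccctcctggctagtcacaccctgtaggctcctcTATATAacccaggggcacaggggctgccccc
Ckb: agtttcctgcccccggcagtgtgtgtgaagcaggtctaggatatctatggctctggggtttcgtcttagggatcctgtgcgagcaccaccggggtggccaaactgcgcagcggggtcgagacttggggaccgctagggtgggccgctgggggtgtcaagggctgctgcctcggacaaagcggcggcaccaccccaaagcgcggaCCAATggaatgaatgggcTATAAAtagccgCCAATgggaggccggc
Ckmt2: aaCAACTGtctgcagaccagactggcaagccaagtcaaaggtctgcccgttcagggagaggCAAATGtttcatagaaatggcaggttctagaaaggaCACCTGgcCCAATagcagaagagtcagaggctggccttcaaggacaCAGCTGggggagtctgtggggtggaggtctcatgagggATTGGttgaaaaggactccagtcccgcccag

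In this window Ckm had a TATATA box that begins 31 bases before the start site and a single CANNTG motif, the letters that muscle bHLH factors bind, which begins 249 bases before it. Ckb had a TATAAA box that begins 28 bases before the start site, between CCAAT boxes that begin 46 and 16 bases before it, and no CANNTG motif. The TATAAA box of Ckb lies inside a stretch that also matches the MEF2 consensus. Ckmt2 had neither TATA form, CCAAT boxes at 145 and 69 bases and 4 CANNTG motifs. Both strands were searched in 32851 RefSeq promoter windows of 300 bases, the 250 bases before the start and the 50 after it. TATAAA was found in 13.6% of them, TATATA in 5.67%, CCAAT in 37.4%, CANNTG in 72.3% and the MEF2 consensus in 3.19%. A match of letters is a description of the sequence and not a bound site.

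Ckm and Ckmt2 were lower and Ckb was higher in the csMed1-/- library. Ckm (chromosome 7, 19411094 to 19421583), the muscle form of cytosolic creatine kinase, had 5262 FPKM in the control pool against 1837 FPKM in csMed1-/- heart. This was 2.86-fold lower (log2 ratio -1.52), and Ckm went from rank 18 to rank 59 among all genes ordered by FPKM. Ckmt2 (chromosome 13, 91853386 to 91876923), the sarcomeric mitochondrial form, had 2096 FPKM in the control pool against 890 FPKM in csMed1-/- heart. It was 2.35-fold lower (log2 ratio -1.24) and went from rank 65 to rank 157. Ckb (chromosome 12, 111669355 to 111672338), the brain form of cytosolic creatine kinase, had 104.5 FPKM in the control pool against 469 FPKM in csMed1-/- heart. It was 4.48-fold higher (log2 ratio 2.16) and moved from rank 924 to rank 285.

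The share of Ckb in the creatine kinase transcripts was far larger in the csMed1-/- library, and such a share does not depend on how the libraries were scaled. Of the summed FPKM of the 3 genes, Ckb made up 1.40% in the control pool against 14.7% in csMed1-/- heart. Ckm made up 70.5% and 57.5%. Ckmt2 held nearly the same share, at 28.1% in the control pool against 27.9% in csMed1-/- heart. Within the cytosolic pair alone Ckb was 1.95% of the FPKM in the control pool against 20.3% in csMed1-/- heart. The FPKM of Ckm was 50.4 times that of Ckb in the control pool against 3.92 times in csMed1-/- heart, whereas the ratio of Ckm to Ckmt2 was 2.51 and 2.06. In summed FPKM, the amount by which Ckb was higher was smaller than the amount by which Ckm and Ckmt2 were lower. Unlike the shares, the size of this difference depends on how the libraries are scaled, and FPKM does not give transcripts per cell. The summed creatine kinase FPKM was 7462 in the control pool against 3196 in csMed1-/- heart (log2 ratio -1.22), and the 364 FPKM by which Ckb was higher equalled 7.86% of the 4630 FPKM by which the other two were lower. Creatine kinase transcripts made up 0.956% of all FPKM in the control pool against 0.446% in csMed1-/- heart.

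**Figure D1:**
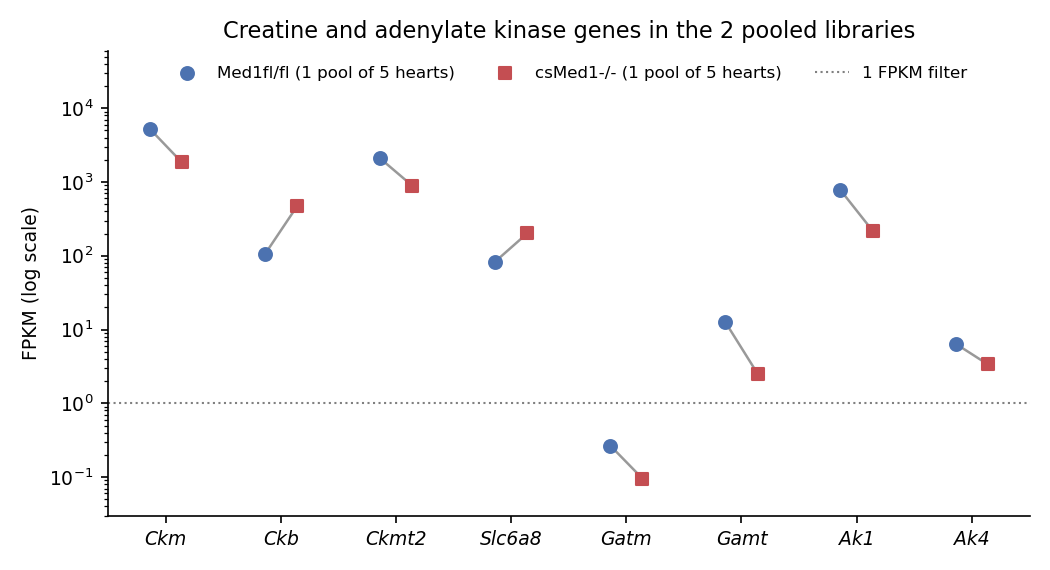
FPKM on a log scale for the 8 genes, with a circle for the control pool and a square for the csMed1-/- pool joined by a line; each point is 1 library, so there are no error bars. Ckb (104.5 to 469) and Slc6a8 (83.0 to 202) lie higher in csMed1-/- heart, the other genes lie lower, and Gatm stays under the dotted line at 1 FPKM in both.

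**Figure D2:**
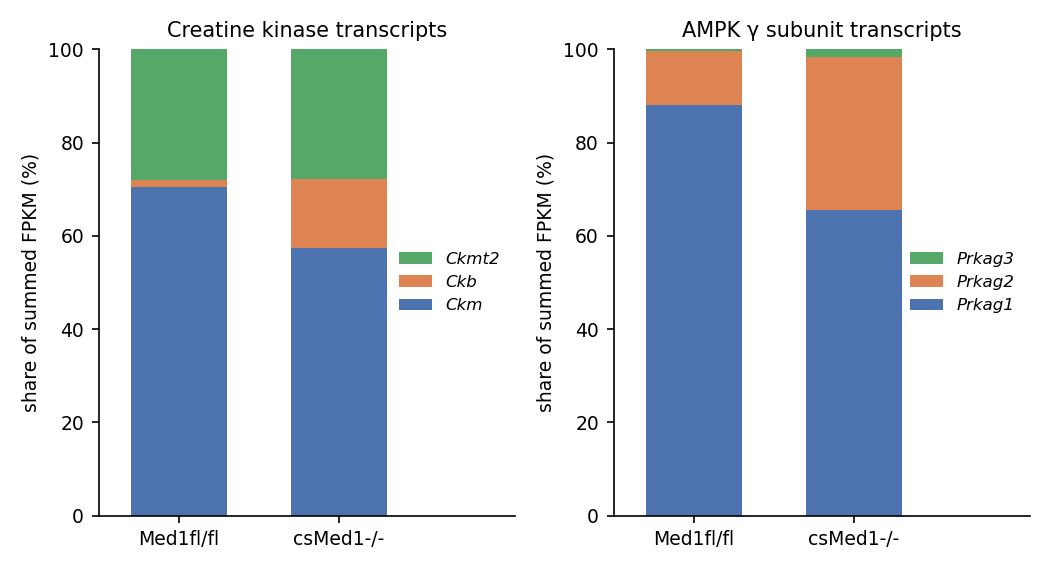
Stacked bars give each gene's share in percent of the summed FPKM of the creatine kinases (left) and of the γ subunits of AMP-activated protein kinase (right) in each library, with 1 library per bar. The Ckb part is 1.40% in the control pool against 14.7% in csMed1-/- heart, and the Prkag2 part is 11.7% and 32.6%.

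Slc6a8 (chromosome X, 73673133 to 73682502), which encodes the creatine transporter of the cell membrane, was the other gene that was higher in csMed1-/- heart. It had 83.0 FPKM in the control pool against 202 FPKM in csMed1-/- heart, a 2.43-fold difference (log2 ratio 1.28). The genes of creatine synthesis were at far lower levels, and only for Gamt was a change read, in the opposite direction. Gamt (chromosome 10, 80258151 to 80261025) encodes the methyltransferase of the last step and had 12.6 FPKM in the control pool against 2.52 FPKM in csMed1-/- heart. At 5.00-fold lower (log2 ratio -2.32), it had the largest decrease of the 8 genes. Gatm (chromosome 2, 122594473 to 122611277), the amidinotransferase of the first step, had 0.268 and 0.0955 FPKM. Its ratio of 0.357 rests on values that a pseudocount of 1 FPKM reduced to a log2 difference of -0.21, and no change was read from it. The FPKM of the transporter was 6.60 times that of Gamt in the control pool against 80.1 times in csMed1-/- heart.

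The 2 adenylate kinase genes of the group were lower in csMed1-/- heart. Ak1 (chromosome 2, 32621758 to 32635058), the cytosolic form that is abundant in muscle, had 775 FPKM in the control pool against 217 FPKM in csMed1-/- heart, a 3.57-fold difference (log2 ratio -1.84). Ak4 (chromosome 4, 101416478 to 101467771), a form of the mitochondrial matrix, had 6.42 and 3.37 FPKM. Its ratio of 0.525 (log2 ratio -0.93) was within 2-fold. Ak4 made up 0.821% of the summed FPKM of Ak1 and Ak4 in the control pool against 1.53% in csMed1-/- heart.

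Ordered by FPKM, the control library ran from Ckm through Ckmt2, Ak1, Ckb, Slc6a8, Gamt and Ak4 to Gatm. In the csMed1-/- library Ckb stood above Ak1, with 469 against 217 FPKM, and Ak4 stood above Gamt, with 3.37 against 2.52 FPKM. Ak1 and Slc6a8, at 217 and 202 FPKM, were close neighbours there. With 1 library per genotype the spread of neighbours in this order is unknown.

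Of the 7 genes that reached the filter, 4 were more than 2-fold lower (Ckm, Ckmt2, Gamt and Ak1), 2 were more than 2-fold higher (Ckb and Slc6a8) and Ak4 was within 2-fold. Over all 10489 genes, 18.0% were more than 2-fold lower and 13.6% were more than 2-fold higher. The median log2 ratio was -1.24 over the 7 genes and -0.07 over all genes, whose quartiles were -0.72 and 0.55. A lower ratio than that of Gamt was found for 3.63% of all genes, than that of Ak1 for 6.31%, than that of Ckm for 9.37% and than that of Ckmt2 for 13.5%. A higher ratio than that of Ckb was found for 3.58% of all genes, and than that of Slc6a8 for 9.54%. Large differences were common among abundant genes too. With the larger value at 100 FPKM or above, 18.7% of 1223 genes were more than 2-fold lower and 19.3% were more than 2-fold higher, and at this level Ckm, Ckmt2 and Ak1 were lower and Ckb and Slc6a8 were higher. Slc6a8 was above 100 FPKM only in csMed1-/- heart, so its place among the higher genes there follows from that limit.

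**Figure D3:**
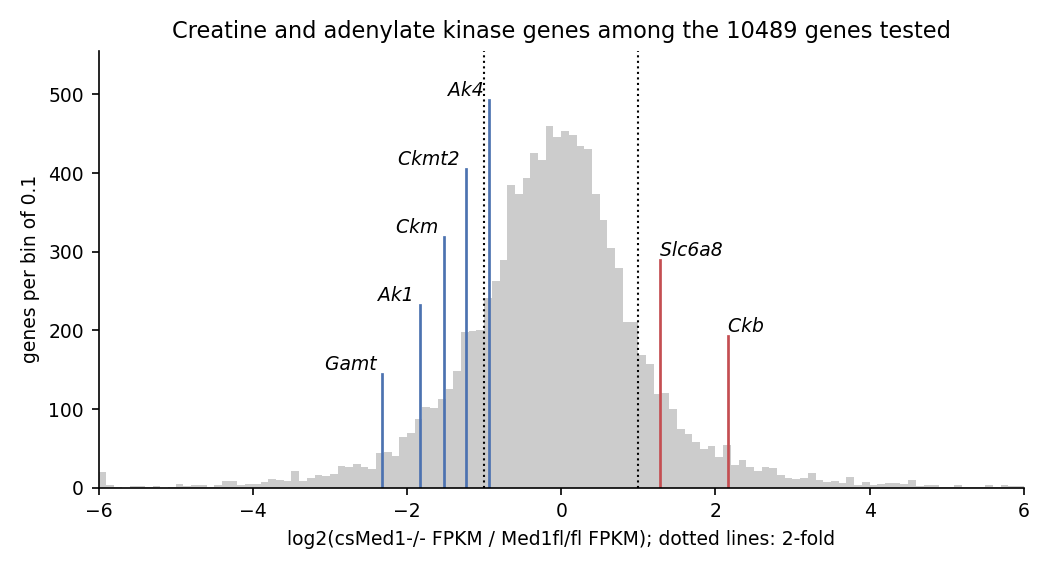
Histogram of the log2 ratio of csMed1-/- to control FPKM for the 10489 genes in bins of 0.1, with values beyond 6 in either direction gathered in the end bins, dotted lines at 2-fold and a labelled line for each of the 7 genes (line heights only separate the labels). Gamt at -2.32 and Ckb at 2.16 lie farthest out, and Ak4 at -0.93 lies just inside the dotted line.

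The hearts were sampled whole, so fewer cardiomyocytes and less RNA per cardiomyocyte cannot be told apart. Of 10 cardiomyocyte markers 9 were in the tables and Myh6 was not analysed here, while Actc1 and Mb were listed at 0 in control. All 7 with a ratio were at 5 FPKM or more in both libraries, and Myl2, the ventricular regulatory light chain, had 20467 and 6571 FPKM. The summed FPKM of these 7 was 56440 in the control pool against 26310 in csMed1-/- heart, a ratio of 0.466. Actc1 and Mb, with 9189 and 1040 FPKM in csMed1-/- heart, would bring the second sum alone to 36540. Whether their 0 in control is a level or a missing estimate is unknown, so this larger sum was not compared with control. Of the 7 markers, 6 were lower, 3 of these by more than 2-fold (18.0% of all genes were). Their log2 ratios ran from -2.74 to 0.33, with a median of -0.75. Read against that median, Ckb (2.92) and Slc6a8 (2.04) stood higher and Gamt (-1.57) and Ak1 (-1.08) stood more than 2-fold lower. Ckm (-0.76) and Ckmt2 (-0.48) were then within 2-fold, as was the summed creatine kinase (-0.47). With that centring the median of all genes was 0.68, and 7.08% of all genes were more than 2-fold lower and 36.4% higher. The call of Ak1 depends on the marker median. Read against the log2 ratio of the sum of the 7 markers (-1.10), Ak1 would be within 2-fold.

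Markers of other heart cells also differed between the libraries, and their part in the higher Ckb and Slc6a8 was not tested. Over all genes, 18.0% were more than 2-fold lower and 13.6% were more than 2-fold higher. The 8 fibroblast markers summed to 503 FPKM in the control pool against 1193 FPKM in csMed1-/- heart, with a median log2 ratio of 0.94, and 4 of them were more than 2-fold higher and 1 lower. The 7 macrophage markers summed to 218 and 315 FPKM, with 1 more than 2-fold higher. The 5 smooth muscle markers summed to 723 and 1065 FPKM, with 2 more than 2-fold higher and 2 lower, but Cnn1 alone went from 4.32 to 622 FPKM, the other 4 summed to 719 and 443 FPKM, and the median log2 ratio was -0.89. The 7 endothelial markers summed to 507 and 403 FPKM, with 3 more than 2-fold lower and none higher. The 6 markers of Schwann cells and neurons, cells in which Ckb is known to be high, summed to 3.96 FPKM in the control pool against 3.76 in csMed1-/- heart. The 2 that reached the filter went opposite ways. Sox10 had 2.49 and 1.54 FPKM (log2 ratio -0.69), and Tubb3 had 0.662 and 1.74 FPKM (1.39, more than 2-fold higher). Of the skeletal muscle markers, which bear on Ckm and Ak1, 6 of 7 were in the tables and summed to 11.6 and 4.29 FPKM. Of the 3 that reached the filter, Myh1 (-3.10) and Tnni2 (-4.29) were more than 2-fold lower and Mylpf (1.35) was more than 2-fold higher. Of the adipocyte markers Retn and Ucp1 were at 0 in both libraries, Adipoq and Plin1 were at 0 in control, and the list sum of 37.6 and 81.5 FPKM was nearly all Cidea. The 3 erythroid markers in the tables, of 5 listed, summed to 36.5 and 85.7 FPKM.

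Reads of Ckb and Ak4 may be shared with near copies. Of the 1423 windows of 50 bases in a Ckb transcript (GENCODE M21), 312 (21.9%) also occur in transcripts of Ckb-ps1, Ckb-ps2 or Gm12892. Of 4137 such windows in Ak4, 487 (11.8%) also occur in Ak3l2-ps. How reads that match several places were counted is not given in the sources used here, so the values of Ckb and Ak4 are less certain on this point. The transcripts of the other 6 genes had 0 such windows. The gene A930016O22Rik overlaps Ckm, and a predicted gene, Gm32261, overlaps Slc6a8. Neither has a row in the tables, and whether the counting used the strand of the directional libraries is not stated.

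The genes that work next to mitochondrial creatine kinase were lower as a group. Of 7 genes of mitochondrial ATP and phosphate exchange, 6 reached the filter and each of these was more than 2-fold lower (18.0% of all genes were), with a median log2 ratio of -1.44. Slc25a4, the main adenine nucleotide translocase of heart, had 9228 FPKM in the control pool against 2087 FPKM in csMed1-/- heart (log2 ratio -2.14). Its paralog Slc25a5 had 645 and 303 FPKM (-1.09, or -0.97 and within 2-fold after rescaling the libraries to the same sum), and the phosphate carrier Slc25a3 had 2164 and 845 FPKM (-1.36). The outer membrane channel genes Vdac1, Vdac2 and Vdac3 had log2 ratios of -1.52, -1.21 and -1.56. The FPKM of Slc25a4 was 4.40 times that of Ckmt2 in the control pool against 2.35 times in csMed1-/- heart. Against the cardiomyocyte marker median only Slc25a4 of these 6 stayed more than 2-fold lower.

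Among the other creatine and adenylate kinase genes, 6 were found of 8 listed, and Ak6 and Ak9 were not analysed here. Ak3, which encodes the GTP-using kinase of the mitochondrial matrix, was the 1 that reached the filter, with 55.7 FPKM in the control pool against 15.2 FPKM in csMed1-/- heart (log2 ratio -1.87). Ckmt1, the ubiquitous mitochondrial creatine kinase, had 0.0114 and 0.0839 FPKM, and the second creatine carrier Slc16a12 had 0.431 and 0.0696 FPKM, both below the filter. Ak5, Ak7 and Ak8 were under 0.1 FPKM in both libraries, and Ak7 was listed at 0 in the control pool.

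AMP, the product of adenylate kinase, is removed by nucleotidases and deaminases, and these genes did not move together. Of 15 genes of AMP and adenine nucleotide turnover 12 reached the filter, 3 were more than 2-fold lower and 1 was more than 2-fold higher. Over all genes 18.0% were lower and 13.6% higher by that much. The median log2 ratio of the 12 was -0.11, which is so near 0 that rescaling the libraries to the same sum turned its sign. Nt5c1a, which encodes a cytosolic nucleotidase that turns AMP into adenosine, had 15.8 FPKM in the control pool against 1.14 FPKM in csMed1-/- heart (log2 ratio -3.79). The AMP deaminase gene Ampd3 had 18.4 and 8.17 FPKM (-1.17), and Adsl, the adenylosuccinate lyase, had 76.3 and 35.3 FPKM (-1.11, or -0.99 after the same rescaling). Nt5c2, which encodes a nucleotidase that prefers IMP, had 11.4 and 25.7 FPKM (1.18). Adssl1, the muscle form of adenylosuccinate synthase and the highest gene of the list, was within 2-fold at 163 and 181 FPKM.

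The AMP-activated protein kinase subunits had nearly the same summed FPKM in both libraries, while the shares of single subunits differed. Of the 7 genes, none was more than 2-fold lower and 3 were more than 2-fold higher (13.6% of all genes were), and 1 of these, Prkag3, reached the filter only through the csMed1-/- pool, where it was higher. Prkag2, a γ subunit that binds AMP, had 14.02 FPKM in the control pool against 42.6 FPKM in csMed1-/- heart (log2 ratio 1.60), and Prkag3 had 0.378 and 2.28 FPKM (2.59). Prkag1, the most abundant, had 106 and 85.7 FPKM, and the share of Prkag2 in the γ subunits was 11.7% in the control pool against 32.6% in csMed1-/- heart. The β subunit gene Prkab2 had 3.94 and 10.7 FPKM (1.44) and made up 9.55% and 30.4% of the β subunits, beside Prkab1 at 37.3 and 24.5 FPKM. The summed FPKM of the list was 164 in the control pool against 168 in csMed1-/- heart.

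**Figure D4:**
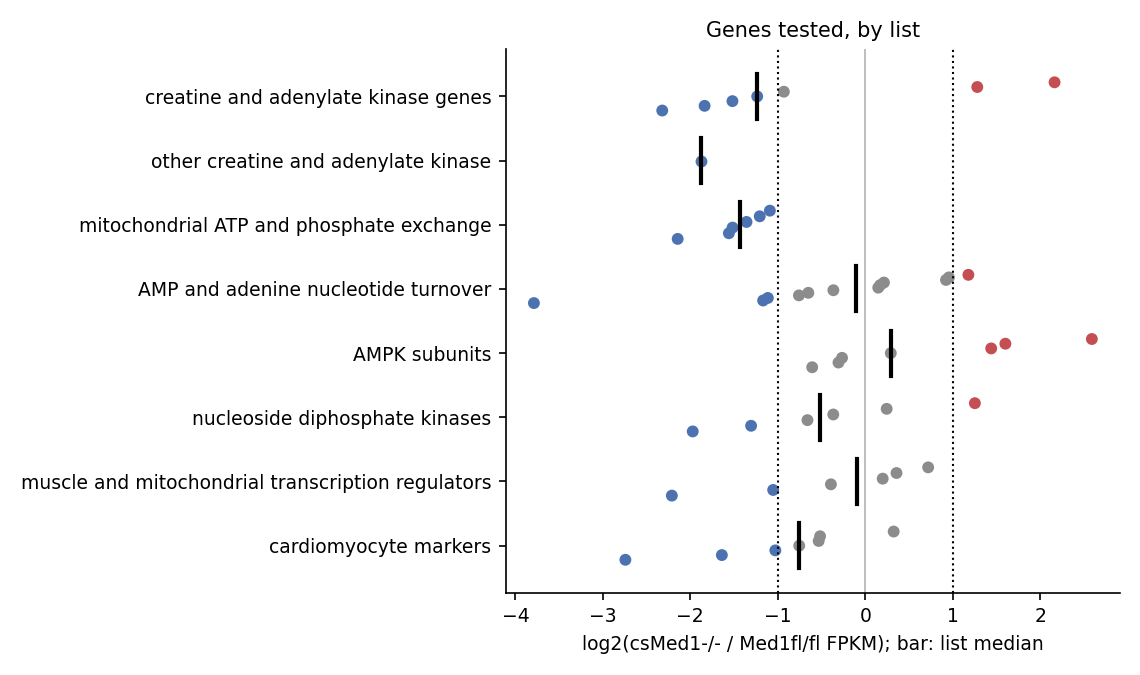
Each point is the log2 ratio of csMed1-/- to control FPKM of a gene that reached the filter, in rows by gene list, with the list median as a bar, dotted lines at 2-fold and blue or red for genes past it. All 6 genes of mitochondrial exchange lie left of the lower line, while the genes of AMP turnover lie on both sides of 0.

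The genes most like each member over the 2 libraries were found by the distance between log2 FPKM values, which uses only these 2 points per gene. Nearest to Ckm was Cox7a1, a cytochrome c oxidase subunit of heart and muscle (5377 and 1925 FPKM), at a distance of 0.0741 log2 units. Tnxb came next at 0.223, with 4862 and 2098 FPKM. Nearest to Ckmt2 were Uqcrc1, a core subunit of respiratory complex III (2177 and 908 FPKM), at 0.0617, and Slc25a3 at 0.0890. Nearest to Ckb were Rnh1, the ribonuclease inhibitor (101 and 416 FPKM), at 0.178, and Grn, which encodes progranulin (119 and 504 FPKM), at 0.212. For Slc6a8 they were 6720456B07Rik at 0.0916 and the protease gene Furin at 0.121, for Ak1 Mir707 at 0.0568 and Tuba4a at 0.0752, for Gamt Dcaf4 at 0.0177 and Pcnt at 0.0775, and for Ak4 Adnp at 0.0358 and Ttyh2 at 0.0566. Gatm was below the filter that these genes had passed and was left out. Mir707, a microRNA by its symbol, was listed at 757 FPKM in the control pool against 224 FPKM in csMed1-/- heart. Whether the values of such rows come from the named gene was not tested.

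**Figure D5:**
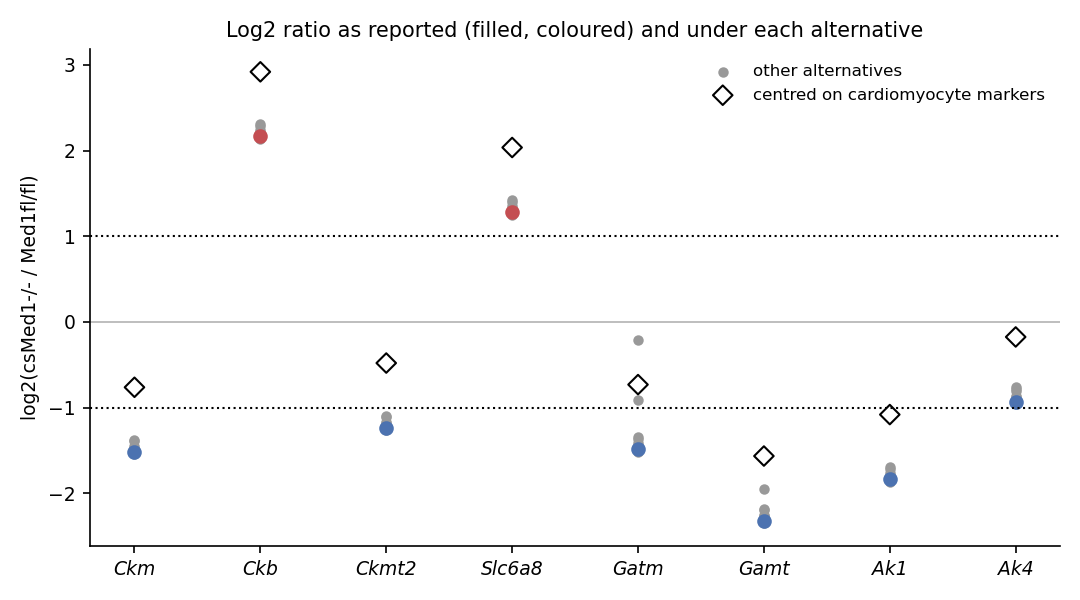
Log2 ratio of each gene as reported (filled, coloured) and under 9 alternative treatments of the values, where open diamonds mark ratios centred on the cardiomyocyte marker median and dotted lines mark 2-fold. No gene changed sign, and Ckm and Ckmt2 came inside 2-fold only with that centring, at -0.76 and -0.48.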

How the data were processed

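Polyadenylated RNA, pooled from 5 hearts per genotype, went into directional single-end sequencing. Reads were aligned by the authors to mm10 with TopHat (version 2.0.8b) and the deposited FPKM values of known genes were computed by the authors with Cufflinks and cuffdiff (version 2.1.1). The library scaling is not stated, and the submitters' processing notes also name STAR (version 2.4.0h), Bowtie2 and DESeq2 with no role.

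FPKM values were used as deposited. Rows sharing a symbol (412 of 22882 symbols, none of the 8 genes) were summed. Genes with no 0 and a larger value of at least 1 FPKM were compared by their plain ratio, with a 2-fold threshold and no pseudocount. With 1 library per genotype no test was run. The 8 genes, the gene lists and the named genes (all 8, any gene of the lists, Med1 and the 2 nearest patterns per gene) were chosen with earlier results of these data known. The 100 FPKM level and the sum without genes at 0 in only one library were added after seeing the data. Ratios were also computed with pseudocounts of 0.1 and 1, other scalings, centring on all genes or on cardiomyocyte markers, other filters, the highest row in place of the sum, and thresholds of 1.5-fold and 4-fold. Coordinates and promoters came from RefSeq (GRCm38.p6), with promoters for 7 of the 8 genes and none for Slc6a8, and shared windows from GENCODE M21. The list of other creatine and adenylate kinases is given without 1 further gene, which is not reported here and not counted in it. The sums of cardiomyocyte markers without Actc1 and Mb and of smooth muscle markers without Cnn1 were also added after seeing the data. The computation was tested on simulated data. Python 3.11.15, numpy 2.4.6, pandas 2.3.3 and matplotlib 3.10.9 were used.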

Additional observations from a re-analysis of the deposited data

How the results depend on the processing

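With 1 pooled library per genotype the error of the ratios cannot be estimated. The limit that depth sets on low values is unknown too. Of 177 values recomputed under the alternatives, 155 were labelled the same. For a ratio this meant the same sign, the same side of 2-fold and a move of no more than 1.5 times. For a count or a share it meant only a change of no more than 1.5 times. Part of the 155 was fixed in advance, since scaling cannot move a share and the highest row cannot differ for genes on 1 row. No ratio changed sign. Ratios centred on the cardiomyocyte markers, which shifts all genes by 0.75, gave -0.76 for Ckm, -0.48 for Ckmt2, -0.47 for the summed creatine kinase, -1.57 for Gamt, -1.08 for Ak1, -0.18 for Ak4, -0.73 for Gatm, 2.92 for Ckb and 2.04 for Slc6a8. This left 2 of the 7 genes more than 2-fold lower in place of 4, with 2 higher as before. Of the pathway lists 5 genes were lower and 10 higher in place of 14 and 5. Over all genes 7.08% were lower and 36.4% higher in place of 18.0% and 13.6%. Gatm had -0.91 with a pseudocount of 0.1 and -0.21 with 1. A 4-fold threshold left 1 gene lower (Gamt) and 1 higher (Ckb), and 3 and 1 of the pathway lists, beside 5.14% and 4.32% of all genes. The lists had 8 genes higher without a filter (15.7% of all genes were) and 8 at a 1.5-fold threshold (23.7%). At 100 FPKM or more they had 7 lower and 0 higher, where only 10 of their 38 genes were left. Of all genes at that level 18.7% were lower and 19.3% higher. The other scalings moved all ratios by 0.14 at most and ended no call of the 7 genes. Rescaling to the same sum (0.12) gave 11 lower and 7 higher in the pathway lists. There Slc25a5, Adsl and Esrra came within 2-fold, and Ada (1.05) and Hprt (1.08) passed it. With that rescaling 15.5% of all genes were lower and a slightly larger share were higher, in place of 18.0% and 13.6%. The share of Ckb in creatine kinase stayed between 14.66% and 14.68% in csMed1-/- heart and between 1.40% and 1.41% in control. No paired analysis was possible because the labels give 1 library per genotype and no replicate numbers.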

Other observations

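The nucleoside diphosphate kinases, which pass phosphate from ATP to other nucleotides, differed by gene. All 6 reached the filter, 2 were more than 2-fold lower and 1 was more than 2-fold higher, beside 18.0% and 13.6% of all genes. Their median log2 ratio was -0.51. Nme2, the highest, had 2178 FPKM in the control pool against 1378 FPKM in csMed1-/- heart (-0.66). Nme4, the mitochondrial form, had 10.3 and 2.63 FPKM (-1.97) and Nme6 had 25.8 and 10.5 FPKM (-1.30). Nme1, a cytosolic form, had 21.4 and 51.1 FPKM (1.25).

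Of 8 transcription regulators of muscle and mitochondrial genes, 6 reached the filter. The median log2 ratio of these 6 was -0.10, which rescaling to the same sum turned positive. More than 2-fold lower were 2 of them (18.0% of all genes were). These were Esrra, the estrogen-related receptor α (127 and 61.4 FPKM, -1.05, or -0.93 and within 2-fold after rescaling to the same sum), and Ppargc1a, the coactivator PGC1α (4.41 and 0.953 FPKM, -2.21), which reached the filter only in control. Mef2a, Mef2d and Srf, whose products act on muscle promoters, had log2 ratios of 0.72, 0.20 and 0.36, within 2-fold. Tead1 had -0.39, and Mef2c and Esrrg stayed under 1 FPKM in both libraries. No link between these genes and the kinase genes was tested.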
